A study of Mus musculus with 8 samples.

Results

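The LXR, PPAR, and cholesterol efflux genes, 10 of the 54146 genes in the deposited counts, were examined in sorted adipose tissue macrophages. They were chosen by name: the liver X receptors (LXRs) *Nr1h3* and *Nr1h2*, the peroxisome proliferator-activated receptors (PPARs) *Pparg* and *Ppard*, their shared partner *Rxra*, the efflux genes *Abca1*, *Abcg1* and *Apoe*, the LDL receptor degrader *Mylip*, and the glucose- and lipid-responsive factor *Mlxipl*. The rule uses no measured value, although the list was drawn up with earlier results of these data known. All 10 were among the 17095 genes with enough counts to be tested.

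The libraries came from male C57Bl6 mice made obese by 24 weeks of a high-fat, high-cholesterol diet eaten ad libitum, and then kept for 2 weeks on short-term caloric restriction (stCR), with 30% less food. Cells of epididymal white adipose tissue (eWAT) were gated as CD45+ and CD11b+ and as negative for CD3, B220, Ly6G, and SiglecF, and were then sorted by the Fc receptor FCGR4 into a positive and a negative population. Each of 4 mice gave 1 library of each population, so the 8 libraries form 4 pairs and every mouse was obese and restricted. Mice 1 and 2 share a sample prefix and mice 3 and 4 share another, and what the prefix stands for is not given. The study describes mice with induced LDL receptor deficiency, but whether it was induced in these 4 is not given in the sources used here. The comparison asks how macrophages with FCGR4 differ from those without it in the same fat depot.

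Total counts lay between 35992794 and 66856746 per library. Levels are given in normalized CPM, that is, counts scaled to the TMM-adjusted size of the library and to a common total. On this scale the detection floor of 3 counts lay between 0.0440 and 0.0883. *Fcgr4* itself was at 215, 139, 208, and 236 normalized CPM in the FCGR4+ libraries of mice 1 to 4 and at 48.5, 52.2, 81.1, and 82.9 in the FCGR4- libraries, so the groups did not overlap (log2 fold change 1.61, edgeR adjusted *P* = 0.0162), although its transcript was also present in the FCGR4- cells. Mast cell and basophil markers summed to between 194 and 2073 normalized CPM in FCGR4- libraries and to between 6.85 and 24.0 in FCGR4+ libraries. All 7 of these markers that were tested were called lower in FCGR4+ cells by edgeR, against 1.19% of all tested genes. So were 7 of 8 T and NK cell markers, 5 of 9 fibroblast markers, 4 of 7 dendritic cell markers, and 4 of 6 neutrophil markers. Of the other lists, 1 of 4 B cell, 1 of 6 mesothelial, 0 of 6 endothelial, and 0 of 11 adipocyte markers were called lower. For the 10 macrophage markers the median log2 fold change was 0.56, and 8 of them were higher in all 4 FCGR4+ libraries than in their pairs, against 8.35% of the genes tested. Their log2 fold changes ran from -0.21 (*Csf1r*, higher in 2 of 4 mice) to 0.68, with *Cd68* at 0.090 and *Lyz2* at 0.13. In bulk libraries, fewer cells of a type and less RNA per cell cannot be told apart.

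LXRs are nuclear receptors that are activated by oxysterols, the oxidized forms of cholesterol. Together with RXR they switch on the export pumps ABCA1 and ABCG1, the lipid carrier APOE, and MYLIP (also called IDOL), which sends the LDL receptor to degradation, so that a cell loaded with cholesterol exports more and takes up less. PPARs also act with RXR, respond to fatty acids, and in macrophages are known for genes of lipid uptake and fatty acid oxidation, and PPARγ for the uptake of dying cells. MLXIPL (ChREBP) binds DNA with its partner MLX and is best known for lipogenic and glycolytic genes in liver and fat cells.

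The DNA before the start site of these genes is shown first, since LXR-RXR and PPAR-RXR pairs bind repeats of AGGTCA, and MLXIPL-MLX binds pairs of CACGTG. The reference table (RefSeq, GRCm38.p6, which has the coordinates of mm10) held windows from 250 bases before to 50 bases after the start for 9 of the 10 genes and none for *Abcg1*. Both strands were searched for 2 copies of AGGTCA spaced by 4 bases, 2 copies of AGGTCA spaced by 1 base, and 2 copies of CACGTG spaced by 5 bases, with up to 3 letters differing. No window of these genes held an exact copy of any of them. Inexact copies are common, and 21.9%, 24.6%, and 8.56% of all 32851 windows held the respective pattern with up to 3 differing letters. The following stretches run 5′ to 3′ on the gene's strand and end at the base before a start site, which for *Rxra* is an alternative start inside the gene as the counts define it, and capitals mark the matched letters outside the spacer.
Abca1, chr4:53159896-53159995, minus strand: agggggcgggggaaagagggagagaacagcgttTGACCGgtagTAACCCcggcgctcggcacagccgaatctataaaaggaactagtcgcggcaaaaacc
Rxra, chr2:27709192-27709291, plus strand: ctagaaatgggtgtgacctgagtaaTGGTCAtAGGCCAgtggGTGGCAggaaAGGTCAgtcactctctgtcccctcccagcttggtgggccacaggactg
Mlxipl, chr5:135089770-135089889, plus strand: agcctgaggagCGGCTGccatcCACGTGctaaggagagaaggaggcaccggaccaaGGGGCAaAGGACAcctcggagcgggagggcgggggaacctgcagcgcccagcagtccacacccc
Apoe, chr7:19699189-19699288, minus strand: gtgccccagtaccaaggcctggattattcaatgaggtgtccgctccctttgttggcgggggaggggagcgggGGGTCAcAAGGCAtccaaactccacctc

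The *Abca1* match is a spacer 4 repeat on the opposite strand that begins at position -67 from the start and differs at 3 letters. *Rxra* held both kinds of repeat without overlap, the spacer 1 repeat at -75 with 2 differing letters and the spacer 4 repeat at -58 with 3. In *Mlxipl*, the CACGTG pair began at -109 and a spacer 1 repeat at -64, each with 3 differing letters, and a further spacer 1 repeat lay upstream of the stretch shown. *Apoe* held a spacer 1 repeat at -28 with 3 differing letters, and another just after the start in the same window. *Pparg* had 1 spacer 4 match across a start site, and the windows of *Nr1h3*, *Nr1h2*, *Ppard*, and *Mylip* had none. These are matches of letters only.

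None of the 10 genes passed an adjusted *P* of 0.1 in the paired edgeR fit, where 1.27% of all tested genes did, 0.0819% higher and 1.19% lower in FCGR4+ cells. At an unadjusted *P* under 0.05 there were 4 of the 10, *Nr1h3*, *Pparg*, *Abcg1*, and *Mlxipl*, all with higher values in FCGR4+ cells, where 3.1% of all tested genes were higher and 6.67% lower at that cutoff. With DESeq2 and the same pairing, *Pparg* and *Mlxipl* passed, both higher, where 1.12% of all genes were called higher. The study's own fit of these libraries was DESeq2 paired by mouse, and it names *Pparg* among the genes upregulated in FCGR4+ macrophages. Of the 10 genes, 7 had a positive log2 fold change, with a median of 0.31 (all tested genes, -0.0025), and 5 were higher in FCGR4+ cells in all 4 mice, against 8.35% of the genes tested. None was lower in every mouse, against 10.4% of the genes tested. Only *Mlxipl* had every FCGR4+ library above every FCGR4- library, against 0.883% of the genes tested.

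**Figure D1:**
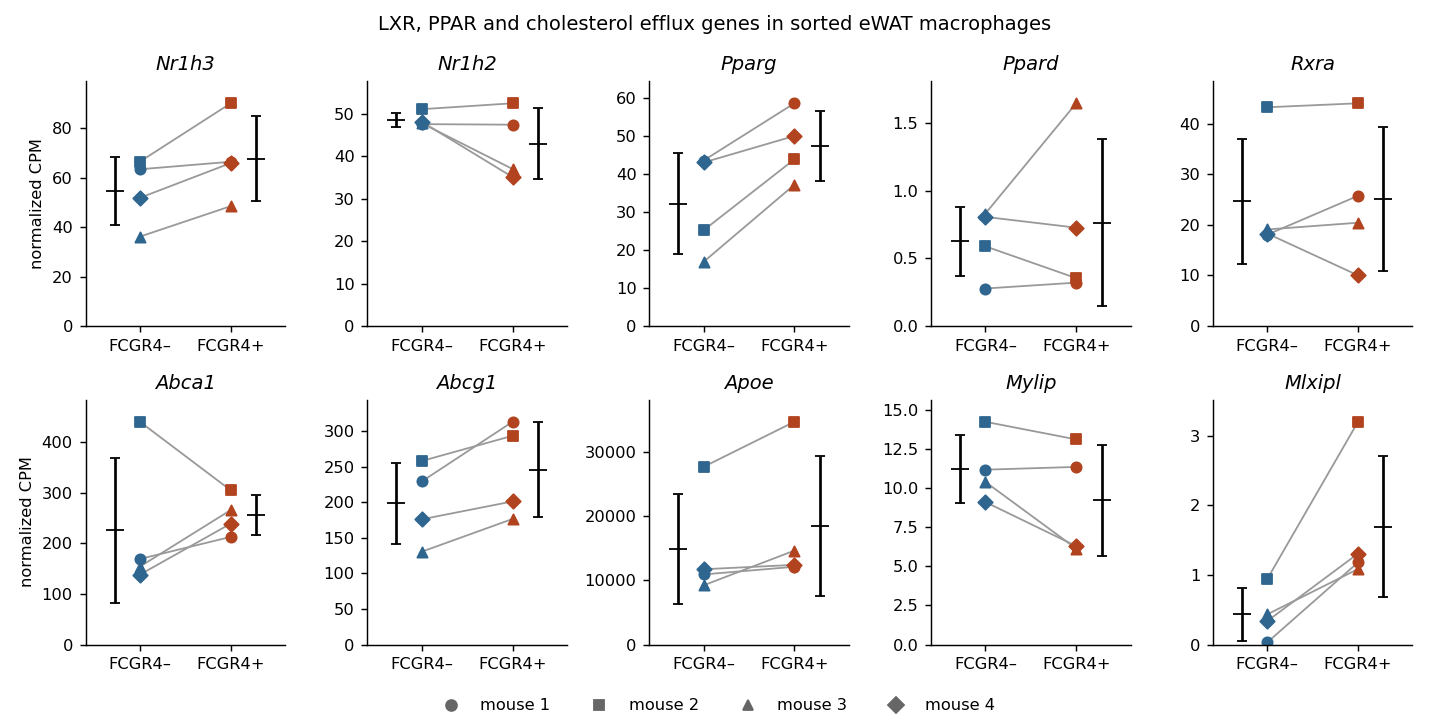
Normalized CPM of each gene (vertical axes, each from 0) in FCGR4- (blue) and FCGR4+ (red) libraries, with lines joining the 2 libraries of a mouse and bars giving the mean ± SD of 4 libraries. The lines of *Nr1h3*, *Pparg*, *Abcg1*, *Apoe*, and *Mlxipl* go up toward FCGR4+ in 4 of 4 mice, and mouse 2 stands highest for *Apoe* and *Rxra*.

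Of the LXRs, *Nr1h3* encodes LXRα (ENSMUSG00000002108.10, chr2:91184061-91202834, minus strand), the form found mainly in macrophages, liver, and fat. It was at 66.5, 90.2, 48.5, and 66.0 normalized CPM in the FCGR4+ libraries of mice 1 to 4 and at 63.5, 66.6, 36.2, and 51.9 in their FCGR4- libraries. Every FCGR4+ library was above the FCGR4- library of its mouse, by 1.05 to 1.35 times, but mice differed from each other by more than that and the groups overlapped. The log2 fold change was 0.32 (SE 0.13, 95% interval 0.0082 to 0.63, edgeR adjusted *P* = 0.50).

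*Nr1h2* encodes LXRβ (ENSMUSG00000060601.13, chr7:44549616-44553951, minus strand), which most cells express. Its levels in FCGR4+ libraries were 47.4, 52.4, 37.0, and 35.1 normalized CPM, and those in FCGR4- libraries 47.5, 51.0, 47.7, and 48.1. The FCGR4- libraries were nearly level (48.6 ± 1.65, SD, n = 4), while the FCGR4+ libraries of mice 3 and 4 lay below them and those of mice 1 and 2 beside them. This was a log2 fold change of -0.20 (SE 0.15, 95% interval -0.54 to 0.15, edgeR adjusted *P* = 0.66).

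The ratio of the 2 LXRs within a library does not depend on library scaling. Per kilobase of exon, *Nr1h3* was at 1.75 to 2.51 times the level of *Nr1h2* in FCGR4+ libraries (mean 2.11) and at 1.01 to 1.78 times in FCGR4- libraries (mean 1.49). All 4 mice had the higher ratio in FCGR4+ cells, by 0.52 ± 0.35 on the log2 scale (SD, n = 4), from 0.072 to 0.80. An exact two-sided sign-flip permutation test gave *P* = 0.13, the smallest that 4 pairs allow, and 0.375 after adjustment over 6 ratios.

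*Rxra* (ENSMUSG00000015846.14, chr2:27676440-27762957, plus strand) encodes the common partner of LXRs and PPARs. It was at 25.8, 44.1, 20.4, and 10.02 normalized CPM in FCGR4+ libraries and at 18.1, 43.3, 19.1, and 18.3 in FCGR4- libraries. Mouse 2 was the highest in both populations, and the FCGR4+ library of mouse 4 was the lowest of all 8. Its log2 fold change was -0.052 (SE 0.23, 95% interval -0.59 to 0.49, edgeR adjusted *P* = 0.95), and without mouse 4 it was 0.21.

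Of the PPARs, *Pparg* (ENSMUSG00000000440.12, chr6:115360951-115490399, plus strand) was at 58.6, 43.8, 37.2, and 49.997 normalized CPM in FCGR4+ libraries and at 43.5, 25.2, 16.9, and 43.0 in FCGR4- libraries. Every mouse had more in its FCGR4+ cells, by 1.16 to 2.20 times, most in mouse 3, while the groups overlapped. The means were 47.4 ± 9.12 and 32.2 ± 13.3 (SD, n = 4), and the log2 fold change was 0.64 (SE 0.18, 95% interval 0.22 to 1.07). edgeR gave an adjusted *P* of 0.262 and DESeq2 0.0399 at a log2 fold change of 0.64. Adipocytes also express *Pparg*. The 12 adipocyte markers summed to between 29.1 and 35.0 normalized CPM in FCGR4+ and between 33.6 and 44.4 in FCGR4- libraries, lower in FCGR4+ cells in all 4 mice. Of the 11 that were tested, 10 had a negative log2 fold change (median -0.42). The exception was *Adipoq*, at 1.32, 0.666, 4.10, and 1.47 in FCGR4+ and at 1.57, 0.824, 1.52, and 1.27 in FCGR4- libraries, higher in 2 of 4 mice. With the summed adipocyte marker level as a covariate, the log2 fold change of *Pparg* was 1.09 (SE 0.42, edgeR adjusted *P* = 1), in a fit that called 0 of all genes.

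*Ppard* (ENSMUSG00000002250.15, chr17:28232754-28301469, plus strand), the PPAR expressed in most tissues, was near the lower end of what was tested, with 17 to 103 counts per library. It was at 0.320, 0.354, 1.64, and 0.726 normalized CPM in FCGR4+ libraries and at 0.277, 0.589, 0.831, and 0.806 in FCGR4- libraries. It was higher in 2 of 4 mice and lower in 2, and the highest value was the FCGR4+ library of mouse 3. In the fit, the log2 fold change came to 0.089 (95% interval -1.16 to 1.34, edgeR adjusted *P* = 0.96). That interval includes a doubling and a halving, the log2 ratios of single mice ran from -0.68 to 0.96, and low counts and the spread between mice were not separated. *Pparg* was at 31.9 to 287 times the per-kilobase level of *Ppard* in the 8 libraries, and the log2 ratio was higher in FCGR4+ cells in all 4 mice by 0.57 ± 0.65 (SD, n = 4, exact sign-flip *P* = 0.13, adjusted 0.375).

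Of the efflux genes, *Abca1* (ENSMUSG00000015243.4, chr4:53030787-53159895, minus strand), whose pump loads cholesterol onto lipid-free apolipoproteins, was at 213, 305, 266, and 239 normalized CPM in FCGR4+ libraries and at 169, 441, 154, and 138 in FCGR4- libraries. FCGR4+ cells had more in 3 of 4 mice and less in mouse 2, whose FCGR4- library was the highest of all 8. The log2 fold change was 0.35 (SE 0.24, 95% interval -0.21 to 0.91, edgeR adjusted *P* = 0.64). Without mouse 2 it was 0.63 (edgeR adjusted *P* = 0.33), and without mouse 1, 3, or 4 it was 0.36, 0.19, and 0.20.

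*Abcg1* (ENSMUSG00000024030.6, chr17:31057698-31115777, plus strand), whose pump passes cholesterol to mature HDL, was at 313, 294, 177, and 201 normalized CPM in FCGR4+ libraries and at 230, 258, 131, and 176 in FCGR4- libraries. Every mouse had more in FCGR4+ cells, by 1.14 to 1.37 times, and mice 1 and 2 were above mice 3 and 4 in both populations. This was a log2 fold change of 0.32 (SE 0.13, 95% interval 0.013 to 0.62, edgeR adjusted *P* = 0.49).

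*Apoe* (ENSMUSG00000002985.16, chr7:19696109-19699188, minus strand) was by far the most abundant of the 10, at 12130, 34760.2, 14657, and 12432 normalized CPM in FCGR4+ libraries and at 10937, 27731, 9237, and 11748 in FCGR4- libraries. Mouse 2 had more than 2 times the level of any other mouse in both populations, and every mouse was higher in FCGR4+ cells, by 1.06 to 1.59 times. Its log2 fold change was 0.31 (SE 0.14, 95% interval -0.021 to 0.63, edgeR adjusted *P* = 0.53).

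The efflux genes, taken as ratios to *Nr1h3*, differed between populations by less than the spread between mice. On the log2 scale of per-kilobase levels, the FCGR4+ minus FCGR4- difference was -0.0028 ± 0.28 for *Abcg1* over *Nr1h3*, -0.013 ± 0.22 for *Apoe* over *Nr1h3*, 0.026 ± 0.67 for *Abca1* over *Nr1h3*, and 0.029 ± 0.58 for *Abca1* over *Abcg1* (SD, n = 4 mice). The exact sign-flip *P* was 0.875 for *Apoe* and 1 for the others, and 2 or 3 of 4 mice were higher in each. The wide SDs with *Abca1* came with mouse 2, whose difference was the lowest for both ratios (-0.97 over *Nr1h3* and -0.72 over *Abcg1*).

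The mean log2 level of the 10 macrophage markers was also higher in FCGR4+ cells, by 0.41, between 0.17 and 0.61 in the 4 mice. edgeR called 0 of them, 7 had an unadjusted *P* under 0.05 and DESeq2 called 7, all higher. Of all tested genes, 3.1% were higher at that cutoff and DESeq2 called 1.12% higher. *Csf1r* (log2 fold change -0.21), *Cd68* (0.090), and *Lyz2* (0.13) were not among those called, while *Mertk* was and is itself a known LXR target. Measured against that mean in the same library, 8 of the 10 genes had a difference below 0. *Nr1h3* came to -0.093 ± 0.18, *Abcg1* to -0.095 ± 0.26, *Apoe* to -0.11 ± 0.14, and *Abca1* to -0.067 ± 0.75 (SD, n = 4). *Pparg* came to 0.23 ± 0.21 and *Mlxipl* to 1.84 ± 1.44, both above 0 in 4 of 4 mice, and *Nr1h2* to -0.61 ± 0.28 and *Mylip* to -0.76 ± 0.45, both below 0 in 4 of 4 mice (exact sign-flip *P* = 0.13 for each, the smallest that 4 pairs allow). The part of the other cells in the FCGR4- libraries in these differences was not tested.

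**Figure D2:**
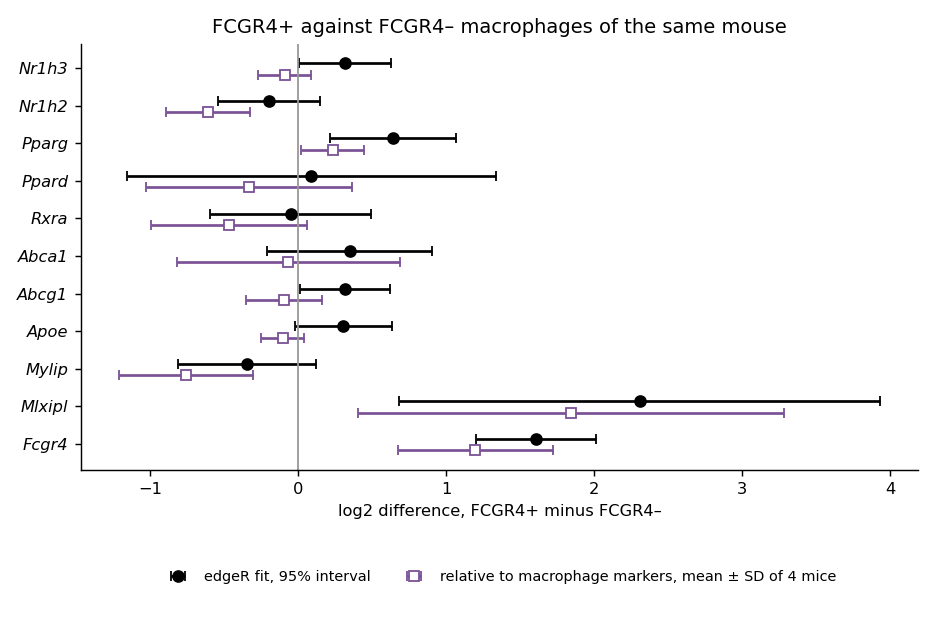
Log2 difference between FCGR4+ and FCGR4- macrophages (horizontal axis) for each gene and for *Fcgr4*: filled circles give the edgeR log2 fold change with its 95% interval, and open squares the difference from the mean of the 10 macrophage markers in the same library (mean ± SD of 4 mice). The intervals of *Nr1h3*, *Pparg*, *Abcg1*, *Mlxipl*, and *Fcgr4* lie above 0, and against the macrophage markers the squares of *Nr1h3*, *Abca1*, *Abcg1*, and *Apoe* lie just below 0.

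*Mylip* (ENSMUSG00000038175.10, chr13:45389742-45412022, plus strand) was at 11.4, 13.1, 6.15, and 6.31 normalized CPM in FCGR4+ libraries and at 11.2, 14.3, 10.4, and 9.13 in FCGR4- libraries. Unlike the efflux genes it was lower on the FCGR4+ side in 3 of 4 mice, with the gap in mice 3 and 4. In the fit, the log2 fold change came to -0.35 (SE 0.20, 95% interval -0.81 to 0.12, edgeR adjusted *P* = 0.60).

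*Mlxipl* (ENSMUSG00000005373.13, chr5:135089890-135138382, plus strand) had the largest fold change of the 10 at one of the lowest levels. It was at 1.18, 3.20, 1.09, and 1.31 normalized CPM in FCGR4+ libraries (70, 154, 68, and 63 counts) and at 0.0308, 0.942, 0.433, and 0.337 in FCGR4- libraries (2, 32, 24, and 23 counts). Every FCGR4+ library was above every FCGR4- library, and the FCGR4- library of mouse 1 was below the level of 3 counts. In mouse 1 the ratio was 38.3, with an exact 95% interval from 10.2 to 323 that covers counting error only. In the other mice the lowest ratio was 2.51.

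The log2 fold change of *Mlxipl* was 2.31 (SE 0.69, 95% interval 0.68 to 3.93), and 1.68 without mouse 1. The edgeR adjusted *P* was 0.303 and the DESeq2 adjusted *P* 0.0206. It was also past the threshold with edgeR's newer quasi-likelihood method (adjusted *P* = 0.0829, where 0.333% of genes were called higher) and, as was *Pparg*, without the filter on low counts (adjusted *P* = 0.0357 for *Mlxipl* and 0.0442 for *Pparg*, where 0.418% of 38021 genes were called higher). Of its exon bases, 4.24% are shared with *Gm43500* on the opposite strand, where read pairs were left uncounted, and strand was not used in counting.

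Ordered by mean level per kilobase of exon (RPKM), FCGR4+ cells had *Apoe* first at 8651, then *Abcg1* at 60.6, *Nr1h3* at 27.0, *Abca1* at 24.7, *Pparg* at 16.1, *Nr1h2* at 12.8, *Rxra* at 4.59, *Mylip* at 2.86, *Mlxipl* at 0.306, and *Ppard* at 0.164. FCGR4- cells differed in the order of 3 neighbouring pairs, with *Abca1* (21.8) before *Nr1h3* (21.7), *Nr1h2* (14.5) before *Pparg* (10.9), and *Ppard* (0.135) before *Mlxipl* (0.0787). In none of these pairs did the order hold in 4 of 4 libraries of either population: *Pparg*, for one, was above *Nr1h2* in 3 of 4 FCGR4+ libraries and in 2 of 4 FCGR4- libraries. The steps from *Apoe* to *Abcg1* and from *Abcg1* to the next gene held in 4 of 4 libraries of both populations. *Apoe* ranked between 2 and 23 among all genes by level per kilobase, and *Ppard* between 14234 and 20037.

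**Figure D3:**
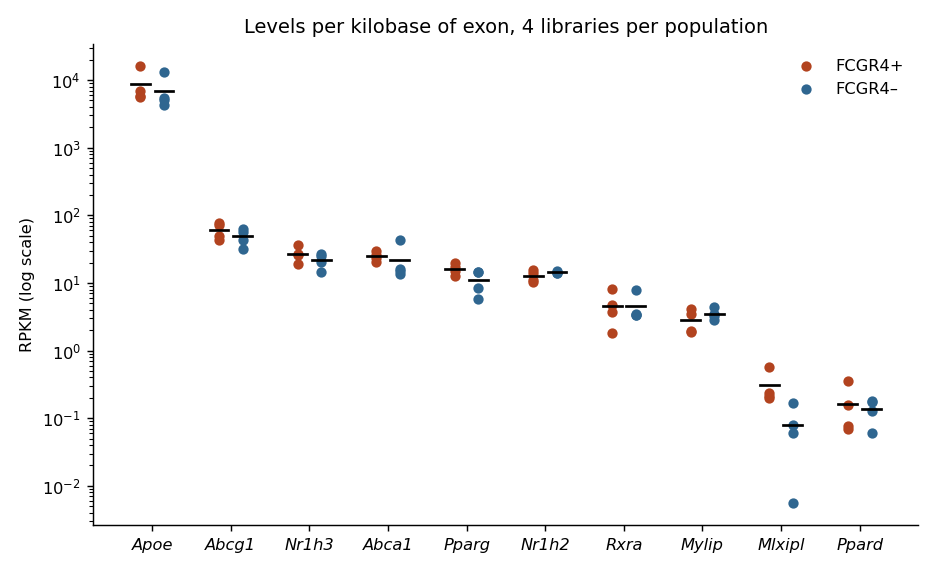
Level per kilobase of exon (RPKM, log scale) of each gene, ordered by the FCGR4+ mean, with 1 point per library (4 per population) and a bar at the mean. *Apoe* lies about 2 orders of magnitude above *Abcg1*, and *Mlxipl* and *Ppard* lie below 1 RPKM in every library.

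Among the partners of these receptors, 12 of 14 listed genes were tested and none passed by edgeR or DESeq2 (1 with an unadjusted *P* under 0.05), 5 higher and 7 lower by sign, with a median log2 fold change of -0.029. The genes with the highest per-kilobase levels were *Rxrb*, an RXR, at 37.7 and 39.1 normalized CPM (means of FCGR4+ and FCGR4-, log2 fold change -0.052), and the coactivator *Ncoa3* at 74.3 and 82.6 (-0.22). *Ppara* and *Rxrg*, the remaining PPAR and RXR, had mean levels of 0.0136 and 0.00843 normalized CPM in FCGR4+ cells and 0.0181 and 0.120 in FCGR4- cells, too low to be tested.

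Of 18 further LXR target genes, 13 were tested, and none was called by edgeR (3 higher and 1 lower at an unadjusted *P* under 0.05). DESeq2 called 3, all higher in FCGR4+ cells, where 1.12% of all genes were called higher. The median log2 fold change was -0.043, with 6 higher and 7 lower by sign. *Cd5l*, a secreted macrophage protein, was at 38.0, 217, 38.6, and 43.9 normalized CPM in FCGR4+ libraries and at 9.23, 86.0, 29.7, and 23.8 in FCGR4- libraries. Every mouse was higher in FCGR4+ cells and mouse 2 highest in both (log2 fold change 1.16, edgeR adjusted *P* = 0.160, DESeq2 adjusted *P* = 5.6e-04).

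*Lpl*, the lipase that frees fatty acids from triglyceride-rich lipoproteins, was at 5462, 2447, 3169, and 3435 normalized CPM in FCGR4+ libraries and at 4443, 1596, 1427, and 2537 in FCGR4- libraries. It was higher in FCGR4+ cells in all 4 mice (log2 fold change 0.62, edgeR adjusted *P* = 0.233, DESeq2 adjusted *P* = 0.0172). *Smpdl3a*, a phosphodiesterase, was also higher in 4 of 4 mice (means 481 and 361 normalized CPM, log2 fold change 0.40, edgeR adjusted *P* = 0.348, DESeq2 adjusted *P* = 0.0630), and *Pltp*, the phospholipid transfer protein, was higher in 3 of 4 (0.32, edgeR adjusted *P* = 0.59).

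The level of *Apoc2* could not be read, since 79.5% of its exon bases are shared with *Gm44805*.

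All 16 PPAR target genes were tested, and edgeR called none (2 higher and 1 lower at an unadjusted *P* under 0.05), with 8 higher and 8 lower by sign and a median log2 fold change of 0.031. The highest by level were *Cd36*, a scavenger receptor for fatty acids and oxidized LDL, and *Plin2*, which coats lipid droplets. *Cd36* was at 5896, 2084, 2515, and 3222 normalized CPM in FCGR4+ libraries and at 5245, 1906, 1351, and 2391 in FCGR4- libraries, higher in 4 of 4 mice (log2 fold change 0.41, edgeR adjusted *P* = 0.49). *Plin2* had means of 3040 and 2901 (0.064, edgeR adjusted *P* = 0.86).

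Of 11 partners and targets of MLXIPL, 10 were tested and none passed by edgeR, by DESeq2 or at an unadjusted *P* under 0.05, 4 higher and 6 lower by sign with a median of -0.15. *Txnip*, a classic glucose-responsive target, was at 354, 201, 155, and 200 normalized CPM in FCGR4+ libraries and at 436, 171, 221, and 257 in FCGR4- libraries, lower in 3 of 4 mice (log2 fold change -0.24, edgeR adjusted *P* = 0.64). *Acly*, which makes cytosolic acetyl-CoA, had means of 93.9 and 109 (-0.28, edgeR adjusted *P* = 0.69).

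Genes that free or store cholesterol had 13 of 14 tested, none past the threshold by edgeR, by DESeq2 or at an unadjusted *P* under 0.05, with 10 higher and 3 lower by sign and a median of 0.17. *Lipa*, the lysosomal acid lipase, was at 1234, 1137, 620, and 705 normalized CPM in FCGR4+ libraries and at 1027, 917, 478, and 725 in FCGR4- libraries, higher in 3 of 4 mice (log2 fold change 0.23, edgeR adjusted *P* = 0.60). *Npc2*, which passes cholesterol out of the lysosome, was at 411, 727, 672, and 744 in FCGR4+ and at 372, 575, 553, and 587 in FCGR4- libraries, higher in 4 of 4 mice (0.28, edgeR adjusted *P* = 0.52). These medians stand beside the 0.56 of the macrophage markers.

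Of 7 receptors degraded through MYLIP and sensors of sterols, none passed by edgeR, and *Vldlr* alone had an unadjusted *P* under 0.05 and was called by DESeq2. *Vldlr*, a lipoprotein receptor, was at 0.185, 0.686, 0.463, and 0.768 normalized CPM in FCGR4+ libraries and at 2.63, 1.09, 2.46, and 1.35 in FCGR4- libraries. It was lower in 4 of 4 mice, against 10.4% of the genes tested (log2 fold change -1.88, edgeR adjusted *P* = 0.395, DESeq2 adjusted *P* = 0.0791, where 4.87% of all genes were called lower). *Insig1*, which holds back sterol synthesis, was at 30.2 to 34.0 in FCGR4+ and at 23.2 to 29.1 in FCGR4- libraries (0.25, edgeR adjusted *P* = 0.58). Every FCGR4+ library was above every FCGR4- library, against 0.883% of the genes tested. *Srebf2*, the factor for sterol synthesis, had means of 64.4 and 78.0 (-0.29, edgeR adjusted *P* = 0.65).

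**Figure D4:**
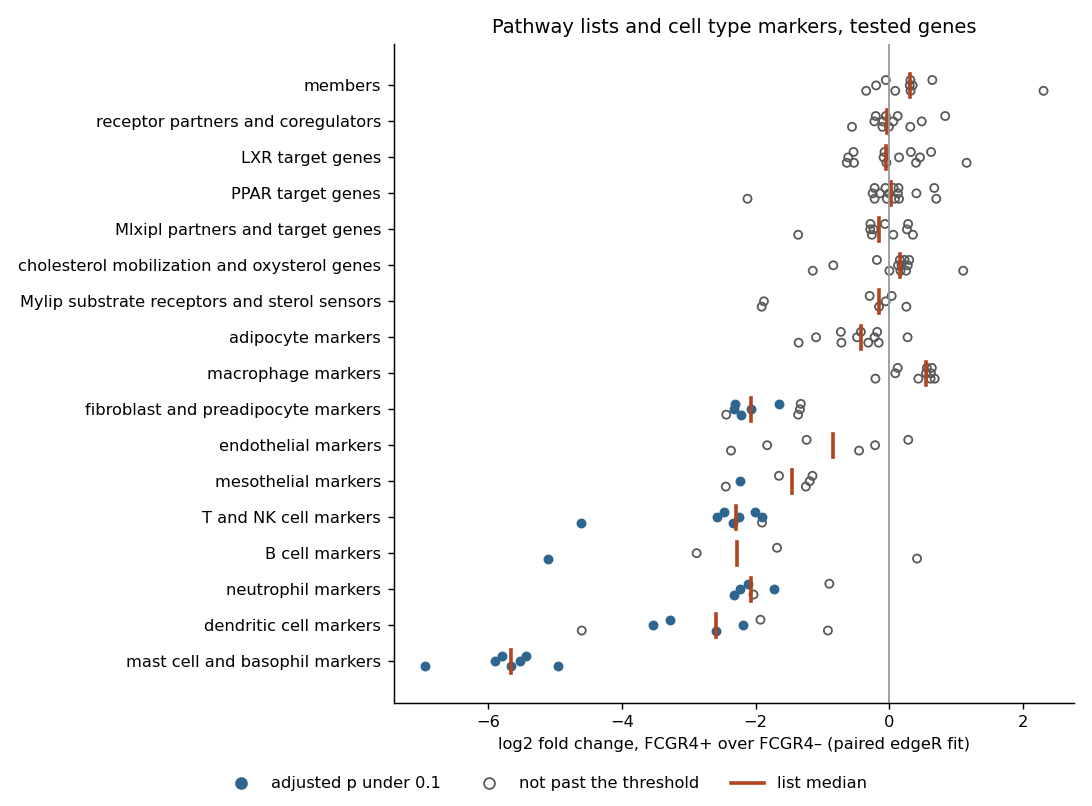
Log2 fold change in the paired edgeR fit (horizontal axis) of each tested gene of the 10 genes ("members"), of 6 pathway lists, and of 10 lists of cell type markers; filled points have an adjusted *P* under 0.1 and red bars are list medians. No pathway gene is filled, the macrophage markers have a median of 0.56, and the filled points are all markers of other cell types with values below 0.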

How the data were processed

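The libraries are bulk RNA-Seq of FCGR4+ and FCGR4- macrophages of eWAT, 1 of each from 4 obese mice on stCR. The authors mapped reads to mm10 with STAR and counted pairs per gene of GENCODE release M18 with featureCounts 1.6.3, and the deposited values are these counts, not normalized, with a gene length in bases that is also the authors' and was used for levels per kilobase. Per the file headers, multiply mapped pairs were counted at every place, strand was not used, and pairs on exons shared by 2 genes were left uncounted. All sample columns were used (0 left out). Symbols were matched for 54079 of 54146 genes.

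Libraries were grouped by their titles. The fit used genes that reached 10 counts in 4 or more of the 8 libraries, TMM scaling, and the quasi-likelihood F-test of edgeR (version 4.0.16 under R 4.3.3) on mouse plus population, with Benjamini-Hochberg adjustment over all 17095 genes, and a threshold of 0.1. The pairing is the mouse in the titles, and deviations from the group means correlated between the 2 libraries of a mouse (0.43, 0.38, 0.29, and 0.30). Standard errors are the log2 fold change over the square root of F. The within-library ratios and the differences from macrophage markers (log2 CPM, prior count of 2) were tested by exact sign flips over 4 mice. At depths of 35992794 to 66856746 counts, 3 counts are 0.0440 to 0.0883 normalized CPM. The floors and the interval of the *Mlxipl* ratio in mouse 1 cover counting error only, and the intervals of log2 fold changes include the spread between mice. DESeq2 1.42.0, other scalings and filters, other mice, and an adipocyte covariate were alternatives.

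The 10 genes and all lists were chosen with earlier results of these data known. Named genes are the 10, *Fcgr4*, and, from 6 pathway lists, those past the threshold by edgeR or DESeq2 and the 2 per list with the highest level per kilobase, and 1 gene that this rule names is not reported here. *Ppara*, *Rxrg*, *Apoc2*, *Mertk*, *Adipoq*, *Lipe*, *Car3*, *Csf1r*, *Cd68*, and *Lyz2* are named outside this rule, after their values had been seen. Genes sharing 50-base words with transcripts of other genes (GENCODE M21) were checked: at most 3.46% of words, in *Mlxipl*. A planned comparison of protein sequences was not made, as no protein table was used here. The fits were tested on simulated data.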

Additional observations from a re-analysis of the deposited data

Results flagged for a closer look

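Among 40 groups of 4 values (each of the 10 genes in FCGR4+ libraries, in FCGR4- libraries, and as a ratio per mouse on the log2 and on the plain scale), 7 had 1 value whose gap to its nearest neighbour, divided by the range of the group, passed Dixon's 95% limit. Chance gives about 1 such group in 20. In 6 of them the value that stood apart was a level, was the highest, and belonged to mouse 2. They were *Apoe* in FCGR4+ (0.888) and in FCGR4- libraries (0.864), *Mlxipl* in FCGR4+ libraries (0.895), and *Abca1* (0.898), *Rxra* (0.959), and *Nr1h2* (0.843) in FCGR4- libraries. The other was the plain ratio of *Mlxipl* per mouse (0.962), where mouse 1, with 2 counts in its FCGR4- library, stood apart at 38.3. None of the 10 log2 ratios per mouse passed the limit. The FCGR4+ and FCGR4- libraries of mouse 2 also had the highest summed macrophage markers of their populations (54106 and 47435 normalized CPM). *Lyz2* was the largest part of that sum, with means over the 4 mice of 23011 in FCGR4+ and 21429 in FCGR4- libraries. Whether the level of macrophage markers has a part in these values was not tested.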

How the results depend on the processing

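The count of called genes (217, with 14 higher and 203 lower, none of the 10 genes) was 48 (1 and 47, none) with no replicate block, that is, without the pairing, 1024 (192 and 832, 2 of the 10) with DESeq2, 1054 (159 and 895, 2) with no filter on low counts, 629 (57 and 572, 1) with edgeR's newer quasi-likelihood method, 76 (2 and 74, none) at a threshold of 0.05, 0 (0 and 0, none) with the adipocyte marker level as a covariate, and 244 (8 and 236, none) by library size alone. Leaving out 1 mouse gave 84 to 163 genes (2 to 9 higher, 82 to 154 lower, none of the 10). Split by sample prefix, mice 1 and 2 alone gave 113 (7 and 106) and mice 3 and 4 alone 113 (29 and 84). The covariate fit leaves few degrees of freedom, and the cause of the other shifts was not tested. *Nr1h3*, *Pparg*, *Abcg1*, *Apoe*, and *Mlxipl* kept a positive log2 fold change under every setting in which they were tested, apart from *Nr1h3*, *Abcg1*, and *Apoe* against the macrophage markers (*Mlxipl* was not tested where 10 counts were required in every library). Log2 fold changes that changed sign were, with the adipocyte covariate, *Nr1h2* (0.20), *Ppard* (-0.21), *Rxra* (0.75), *Abca1* (-0.61), and *Mylip* (0.0046); in mice 1 and 2 alone, *Nr1h2* (0.017), *Ppard* (-0.26), *Rxra* (0.27), and *Abca1* (-0.10); by library size alone, *Ppard* (-0.0020); and with no replicate block, *Rxra* (0.024). For the 4 genes that changed sign in mice 1 and 2 alone, mice 3 and 4 alone gave -0.43 (*Nr1h2*), 0.40 (*Ppard*), -0.40 (*Rxra*), and 0.77 (*Abca1*). Leaving out 1 mouse moved *Ppard* from -0.23 (without mouse 3) to 0.35, and *Rxra* from -0.24 to 0.21 (without mouse 4). Against the macrophage markers, an alternative chosen after seeing the data, *Nr1h3* (-0.093), *Ppard* (-0.33), *Abca1* (-0.067), *Abcg1* (-0.095), and *Apoe* (-0.11) changed sign. Of the ratios, leaving out 1 mouse gave -0.16 to 0.28 for *Abca1* over *Abcg1*, -0.11 to 0.36 for *Abca1* over *Nr1h3*, -0.13 to 0.080 for *Abcg1* over *Nr1h3*, and -0.098 to 0.071 for *Apoe* over *Nr1h3*, while *Nr1h3* over *Nr1h2* and *Pparg* over *Ppard* stayed above 0. Of the 20 ranks by level per kilobase, 18 were the same by TPM. Counts below 100, as for *Ppard* and *Mlxipl* in most libraries, limit what can be seen of these 2 genes.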
